A study of Mus musculus with 12 samples.

Results

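The genes described here are 36 mouse genes that carry fatty acids into the heart muscle cell, through the carnitine shuttle and into mitochondrial beta-oxidation, together with the regulators that act on them. Each was followed through the array probe set annotated to that gene alone, and where a gene had several such probe sets the brightest on average across the 12 arrays was taken. This gave values for 34 of the 36 genes, out of 19938 genes measured in all. Acsl1, an acyl-CoA synthetase, and Cpt1b, the muscle form of the outer carnitine palmitoyltransferase, are not analysed here because neither had a probe set annotated to it alone. Lipe, hormone-sensitive lipase, was matched through its older name Hsl.

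The study measured heart tissue of male C57BL/6 mice on Affymetrix whole-transcript arrays, with 2 arrays in each of 6 groups, and asked which genes mark the right heart when its outflow is obstructed. In the right ventricle (RV), tissue came from sham-operated mice 3 weeks after surgery, aged 15 weeks, and from mice with pulmonary artery clipping (PAC) at 1, 3 and 6 weeks, aged 13, 15 and 18 weeks. In the left ventricle (LV), tissue came from sham-operated mice and from mice with transaortic constriction (TAC), both at 3 weeks and 15 weeks of age. The obstruction was a metal clip closed around the vessel, all hearts were perfused and dissected into LV, septum and RV, and no genetic change is named in the labels. Sham tissue was sampled at 3 weeks only, so at 1 and 6 weeks the time since surgery and the age also differ from the sham RV. The labels do not say that the 2 arrays of a group came from separate animals, so the p-values measure only the spread between these arrays, which may be technical.

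Fatty acids are the main fuel of the adult heart. They are freed from lipoproteins by lipoprotein lipase, cross the membrane with the help of CD36 and transport proteins, are bound to coenzyme A, and pass into mitochondria as carnitine esters. Malonyl-CoA, made by acetyl-CoA carboxylase and removed by malonyl-CoA decarboxylase, holds this entry step back. Inside, acyl-CoA dehydrogenases, hydratases, hydroxyacyl-CoA dehydrogenases and thiolases shorten the chain step by step, and electron transfer flavoprotein hands the electrons of the first step to the respiratory chain. PPAR alpha, the estrogen-related receptor alpha and the PGC-1 coactivators drive transcription of many of these genes in muscle and heart.

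All values are log2 expression values as deposited, and differences between groups are log2 differences. Mates within a group correlated at between 0.9917, for PAC at 1 week, and 0.9971, for TAC, over the 19938 genes. By their mean over the 12 arrays, all 34 genes lay above 6.74, the median of this mean over all genes. On single arrays Acot1 came as low as 6.72, on array 2 of PAC at 6 weeks. All 16 heart muscle markers (among them Myh6, Tnnt2 and Actc1) read above the array's median of unlisted probe sets on all 12 arrays. Of 8 fat cell markers, 4 (Plin1, Cidec, Car3 and Cidea) read above it on all 12 and 3 (Adipoq, Lep and Ucp1) below it on all 12. Of 8 skeletal muscle markers, 2 (Tnnt3 and Tnni2) read above it on all 12 and 2 (Myh1 and Myh4) below it on all 12. Depth does not apply to arrays, and the number of arrays limits the precision.

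In the mean of the 3 PAC times against the sham RV, 14 of the 34 genes fell, 0 rose and 20 did not pass, where 12.6% of all genes fell and 12.2% rose (limma, adjusted p of 0.05 or less over all genes). The 14 came from all 8 of the roles described here, from uptake to regulation, with 1 to 5 genes in each. Their fall ran from 0.32 for Echs1 to 0.89 for Acot1 on the log2 scale, which is 19.6% to 46.1% less signal. The median difference over all 34 genes was -0.28, against -0.05 over all genes and 0.07 over the genes at or above the median level. For 18 of the 34 genes all 6 clipped arrays lay below both sham RV arrays, a pattern that 21.8% of all genes showed, and for 0 all lay above, against 16.8%. By sign alone, 31 of the 34 lay below 0 in the mean, against 58.5% of all genes, and 31 lay below 0 at each of the 3 times, against 46.1%. With cyclic loess scaling in place of the deposited scale, the split of all genes at 1 week moved from 1766 lower and 1909 higher to 811 lower and 1363 higher. In a sample of whole tissue, fewer heart muscle cells and less RNA per cell cannot be told apart.

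These calls rest on the 2 sham RV arrays, which serve every PAC comparison. Without sham RV array 1, 0 of the 34 genes passed in the mean of the 3 times, and without array 2 only Mlycd did; without PAC array 2 at 6 weeks 5 passed, and without PAC array 2 at 3 weeks 8 did. The median difference kept its sign in each of these cases, between -0.36 and -0.20 over the 12 arrays left out in turn. Sham RV array 1 read above array 2 for 31 of the 34 genes. The clipped arrays differed as well. The median distance of the 34 genes from the sham RV mean was -0.11 and -0.50 at 1 week, -0.27 and -0.33 at 3 weeks, and -0.20 and -0.33 at 6 weeks.

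**Figure D1:**
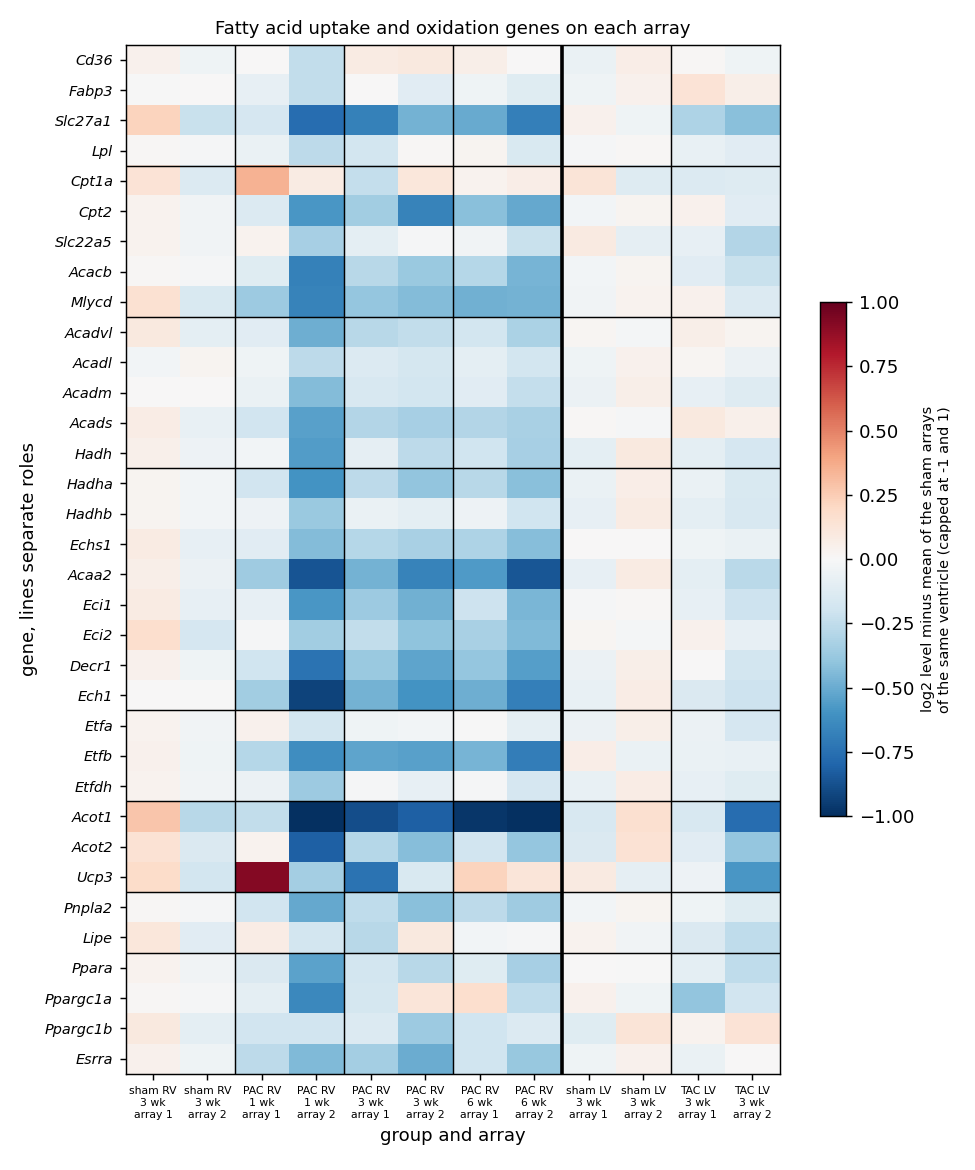
Log2 level of each of the 34 genes on each of the 12 arrays, shown as the distance from the sham mean of its own ventricle, with genes ordered by their role. Below-sham colours fill most of the PAC columns, deepest on array 2 at 1 week, whose median over the genes was -0.50, while the TAC columns stay nearer 0, at -0.07 and -0.14.

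Of 4 measured genes of uptake and activation at the cell surface, 1 fell over the 3 times, where 12.6% of all genes did. Slc27a1 encodes a fatty acid transport protein of the plasma membrane with acyl-CoA synthetase activity. Its level was 10.39 and 9.94 in sham RV, 10 and 9.40 at 1 week of PAC, 9.49 and 9.69 at 3 weeks, and 9.66 and 9.48 at 6 weeks. The first array at 1 week lay between both sham arrays, so the groups overlap, and the other 5 clipped arrays lay below. Averaged over the 3 times Slc27a1 fell by 0.54 ± 0.16 on the log2 scale (SE, adjusted p = 0.031), and it passed at no single time. In the LV it read 10.12 and 10.04 in sham and 9.77 and 9.66 after TAC, a difference of -0.36 ± 0.19 (adjusted p = 0.98).

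The other transport genes gave values near the sham level. Cd36, the fatty acid translocase, read 13.22 and 13.13 in sham RV and between 12.93 and 13.27 on the clipped arrays, a difference of 0.00 ± 0.08. Fabp3, the fatty acid binding protein of heart muscle, differed by -0.10 ± 0.07, and its less bright probe set by -0.14. Lpl, lipoprotein lipase, differed by -0.10 ± 0.08. None of these 3 passed.

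Of 5 measured genes of the carnitine shuttle and its control, 3 fell over the 3 times, where 12.6% of all genes did. Mlycd encodes malonyl-CoA decarboxylase, which removes the inhibitor of carnitine palmitoyltransferase 1. It read 8.60 and 8.30 in sham RV, 8.09 and 7.78 at 1 week, 8.06 and 8.02 at 3 weeks, and 7.97 and 7.98 at 6 weeks. All 6 clipped arrays lay below both sham arrays, and the later times were close to each other. The fall was 0.47 ± 0.10 over the 3 times (adjusted p = 0.014), 0.51 ± 0.13 at 1 week (adjusted p = 0.025) and 0.48 ± 0.13 at 6 weeks (adjusted p = 0.044). Sham LV arrays at 8.19 and 8.26 and TAC arrays at 8.27 and 8.09 overlapped, with a difference of -0.04 ± 0.13.

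Acacb, the acetyl-CoA carboxylase that makes malonyl-CoA at mitochondria, moved in the same direction as the enzyme that removes it. It read 10.57 and 10.54 in sham RV, 10.43 and 9.88 at 1 week, 10.28 and 10.18 at 3 weeks, and 10.27 and 10.09 at 6 weeks, with no overlap. The fall over the 3 times was 0.37 ± 0.12 (adjusted p = 0.048). TAC left it at 10.29 and 10.18 against 10.38 and 10.43 in sham LV, groups that did not overlap but whose difference of -0.17 ± 0.15 did not pass.

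Cpt2, the carnitine palmitoyltransferase of the inner membrane, read 10.59 and 10.52 in sham RV. Clipped arrays read 10.42 and 9.97 at 1 week, 10.21 and 9.89 at 3 weeks, and 10.14 and 10.04 at 6 weeks, all below the sham RV. It fell by 0.44 ± 0.12 (adjusted p = 0.025). In the LV the values were 10.36 and 10.41 in sham and 10.43 and 10.27 after TAC, which overlap. Cpt1a, the outer-membrane enzyme typical of liver, differed by 0.07 ± 0.12 and Slc22a5, the carnitine transporter, by -0.11 ± 0.11; neither passed.

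Among the 5 dehydrogenases, which begin each round of oxidation or carry out a later step of it, Acads alone passed. Acads acts on short chains. Its levels were 10.24 and 10.09 in sham RV, 9.97 and 9.62 at 1 week, 9.87 and 9.83 at 3 weeks, and 9.87 and 9.84 at 6 weeks. No clipped array reached the sham range. Acads fell by 0.33 ± 0.09 over the 3 times (adjusted p = 0.027) and by 0.37 ± 0.11 at 1 week (adjusted p = 0.044). With 1 array left out at a time, its difference at 1 week ran from -0.55 to -0.19. Most of these fits did not keep the 1-week call. After TAC Acads read 10.06 and 10.01, both above the 9.97 and 9.95 of sham LV, a difference of 0.08 ± 0.11.

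The enzymes for longer chains had differences of the same sign that did not pass. Acadvl, for very long chains, differed by -0.27 ± 0.10 (adjusted p = 0.064). Acadm, the medium-chain enzyme, differed by -0.20 ± 0.09 and Acadl, the long-chain enzyme, by -0.15 ± 0.08. Hadh, the hydroxyacyl-CoA dehydrogenase for short chains, differed by -0.24 ± 0.12. Every one of the 5 dehydrogenases lay below the sham RV at each of the 3 times by sign.

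Hydratases, thiolases and auxiliary enzymes, the largest role, had 5 of 8 genes lower over the 3 times, where 12.6% of all genes were. The carnitine shuttle, with 3 of 5, had a similar share. Acaa2, the mitochondrial thiolase that cuts off acetyl-CoA, read 12.77 and 12.66 in sham RV. On the clipped arrays it read 12.36 and 11.85 at 1 week, 12.24 and 12.05 at 3 weeks, and 12.15 and 11.86 at 6 weeks. The highest clipped array thus lay below the lower sham array. Acaa2 fell by 0.63 ± 0.13 over the 3 times (adjusted p = 0.012), by 0.61 ± 0.16 at 1 week (adjusted p = 0.032) and by 0.71 ± 0.16 at 6 weeks (adjusted p = 0.028). Sham LV arrays read 12.43 and 12.59 and TAC arrays 12.41 and 12.24, a difference of -0.19 ± 0.16 that did not pass, with TAC lower on both arrays.

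Ech1, a dienoyl-CoA isomerase for unsaturated chains, followed the same course. It read 12.91 and 12.90 in sham RV, 12.56 and 11.98 at 1 week, 12.43 and 12.31 at 3 weeks, and 12.42 and 12.22 at 6 weeks. Both sham arrays stood above every clipped array. The fall was 0.58 ± 0.13 over the 3 times (adjusted p = 0.014), 0.63 ± 0.16 at 1 week (adjusted p = 0.026) and 0.58 ± 0.16 at 6 weeks (adjusted p = 0.047). Ech1 read 12.61 and 12.76 in sham LV and 12.54 and 12.48 after TAC, lower on both arrays by a mean of -0.17 ± 0.16, not past the test.

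Decr1, the dienoyl-CoA reductase that prepares polyunsaturated chains, read 11.86 and 11.78 in sham RV, 11.62 and 11.08 at 1 week, 11.45 and 11.29 at 3 weeks, and 11.43 and 11.27 at 6 weeks. The groups did not overlap, and Decr1 fell by 0.47 ± 0.13 (adjusted p = 0.026). Its LV values were 11.60 and 11.71 in sham and 11.66 and 11.47 after TAC, which overlap. Echs1, the short-chain enoyl-CoA hydratase, read 11.40 and 11.23 in sham RV, 11.20 and 10.88 at 1 week, 11.03 and 10.99 at 3 weeks, and 11.01 and 10.89 at 6 weeks. The gap between the lower sham array and the highest clipped array was small for Echs1, and its fall was 0.32 ± 0.09 (adjusted p = 0.03). In the LV Echs1 read 11.27 on both sham arrays and 11.23 and 11.20 after TAC.

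Hadha and Hadhb encode the alpha and beta subunits of the mitochondrial trifunctional protein, which carries out the later steps of each round on long chains. Hadha read 12.79 and 12.74 in sham RV, 12.57 and 12.17 at 1 week, 12.50 and 12.37 at 3 weeks, and 12.49 and 12.35 at 6 weeks. No clipped array reached the sham level, and Hadha fell by 0.36 ± 0.10 (adjusted p = 0.031). Hadhb read 13.33 and 13.27 in sham RV and from 12.93 to 13.25 on the clipped arrays, also without overlap, but its difference of -0.14 ± 0.09 did not pass (adjusted p = 0.27). The Hadha difference less the Hadhb difference was -0.22, which was not tested. In the LV, Hadha read 12.62 and 12.75 in sham and 12.62 and 12.53 after TAC. The enoyl-CoA isomerases Eci1 and Eci2, which shift double bonds, differed by -0.36 ± 0.12 (adjusted p = 0.055) and -0.30 ± 0.11 (adjusted p = 0.066).

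Etfb, the beta subunit of electron transfer flavoprotein, was the 1 gene of the 34 that passed at 1, 3 and 6 weeks alike. It read 12.44 and 12.35 in sham RV, 12.11 and 11.77 at 1 week, 11.87 and 11.85 at 3 weeks, and 11.93 and 11.70 at 6 weeks. Every clipped array lay below both sham arrays. Etfb fell by 0.46 ± 0.12 at 1 week (adjusted p = 0.03), 0.53 ± 0.12 at 3 weeks (adjusted p = 0.035) and 0.58 ± 0.12 at 6 weeks (adjusted p = 0.021), and by 0.52 ± 0.10 over the 3 times (adjusted p = 0.0079). At 3 weeks Acaa2 and Ech1 had differences of like size, -0.57 and -0.53, that did not pass (limma, adjusted p = 0.063 and 0.067). That Etfb alone passed at all 3 times thus depends on the threshold. As a share of the sham signal, Etfb fell by 30.4% over the 3 times. In sham LV it read 12.10 and 11.97 and after TAC 11.97 and 11.96, a difference of -0.06 ± 0.12.

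Its partner subunit, with which it forms the working protein, stayed near the sham level by its values. Etfa read 12.02 and 11.95 in sham RV and between 11.80 and 12.03 on the clipped arrays, which overlap, a difference of -0.05 ± 0.08 (adjusted p = 0.66). The Etfb difference less the Etfa difference was -0.47, which was not tested. Etfdh, the oxidoreductase that takes electrons from the flavoprotein to ubiquinone, differed by -0.12 ± 0.09.

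**Figure D2:**
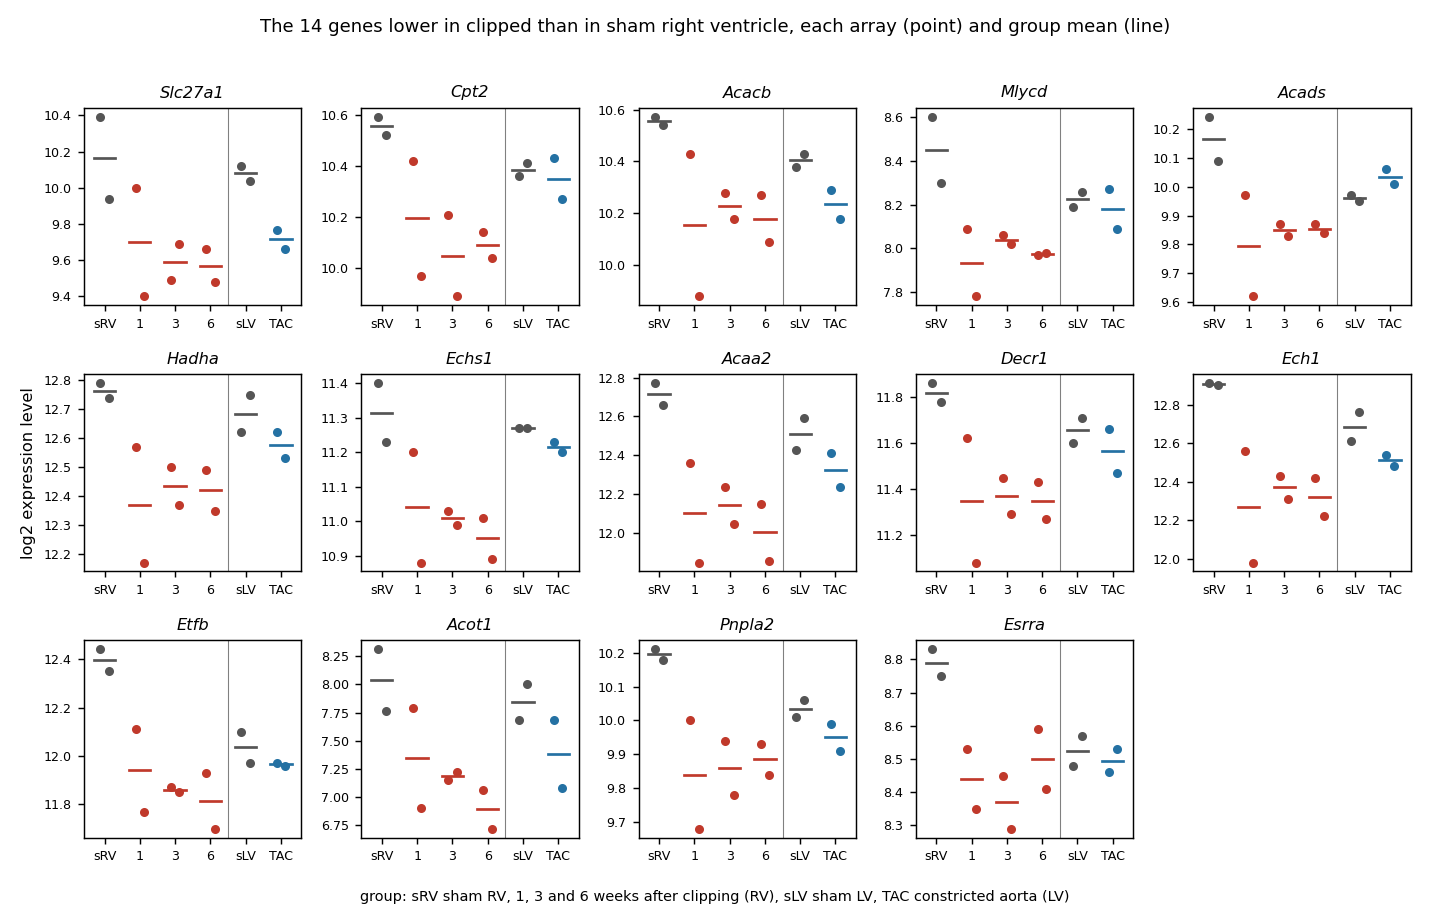
Log2 level, on the vertical axes, of the 14 genes that passed, by group along the horizontal axes, with each array as a point and the group mean as a short line. Sham RV points stand above the clipped points for all of them except Acot1 and Slc27a1, where they overlap, and sham LV and TAC points lie close together for most.

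The thioesterases split acyl-CoA back into free fatty acid and coenzyme A. Acot1 had the deepest fall of the 34 genes and also a wide spread between mates. Its level was 8.31 and 7.76 in sham RV, 7.79 and 6.90 at 1 week, 7.15 and 7.22 at 3 weeks, and 7.06 and 6.72 at 6 weeks. One array at 1 week lay above the lower sham array, while all arrays at 3 and 6 weeks lay below both. The fall was 0.89 ± 0.24 over the 3 times (adjusted p = 0.025) and 1.14 ± 0.29 at 6 weeks (adjusted p = 0.039). TAC and sham LV arrays, at 7.68 and 7.08 and at 7.68 and 8.0, lay close at their nearest, with both TAC arrays the lower, and the difference of -0.46 ± 0.29 did not pass.

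Acot2, the mitochondrial form, read 11.26 and 10.97 in sham RV and from 10.30 to 11.15 on the clipped arrays, a difference of -0.34 ± 0.19 (adjusted p = 0.19). Acot1 and Acot2 are near-identical copies, so how the array divides signal between them is uncertain. Ucp3, a mitochondrial uncoupling protein, had the least settled values. It read 8.68 and 8.32 in sham RV, 9.42 and 8.16 at 1 week, 7.76 and 8.35 at 3 weeks, and 8.72 and 8.62 at 6 weeks. The mates at 1 week spanned the whole range of the RV but for 1 array, and the difference over the 3 times was 0.01 ± 0.28.

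Lipolysis of stored triglyceride is represented by 2 genes. Pnpla2, adipose triglyceride lipase, read 10.21 and 10.18 in sham RV, 10 and 9.68 at 1 week, 9.94 and 9.78 at 3 weeks, and 9.93 and 9.84 at 6 weeks. The clipped arrays were all lower, by 0.33 ± 0.09 over the 3 times (adjusted p = 0.026) and 0.35 ± 0.11 at 1 week (adjusted p = 0.048) in the fit. With 1 array left out at a time, the difference at 1 week ran from -0.51 to -0.2, and most of these fits did not keep the call. The LV levels of Pnpla2 were 10.01 and 10.06 in sham and 9.99 and 9.91 after TAC. Lipe differed by -0.06 ± 0.11.

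Among the regulators, Esrra, the estrogen-related receptor alpha, was the 1 of 4 that passed. It read 8.83 and 8.75 in sham RV, 8.53 and 8.35 at 1 week, 8.45 and 8.29 at 3 weeks, and 8.59 and 8.41 at 6 weeks. The sham RV arrays stood above all 6 clipped arrays. Esrra fell by 0.35 ± 0.08 over the 3 times (adjusted p = 0.017), by 0.35 ± 0.10 at 1 week (adjusted p = 0.043) and by 0.42 ± 0.10 at 3 weeks (adjusted p = 0.044). In the LV it read 8.48 and 8.57 in sham and 8.46 and 8.53 after TAC, which overlap.

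Its partners gave smaller or more variable values. Ppara, the fatty acid sensing receptor, read 9.13 and 9.06 in sham RV and from 8.56 to 8.97 on the clipped arrays. These did not overlap, and the difference of -0.27 ± 0.10 did not pass (adjusted p = 0.081). Ppargc1a, which encodes PGC-1 alpha, read 10.42 and 10.39 in sham RV, 10.31 and 9.76 at 1 week, 10.23 and 10.53 at 3 weeks, and 10.57 and 10.15 at 6 weeks, with clipped arrays on both sides of the sham level. Its difference was -0.15 ± 0.15, and -0.014 on its less bright probe set. Ppargc1b, the related coactivator, differed by -0.20 ± 0.09.

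Because several of these genes are known targets of nuclear receptors, the promoter windows were searched for the letters that such receptors bind. The RefSeq table (GRCm38.p6) held windows of 250 bases before to 50 after the start for 31 of the 36 genes, and 5 had none. The sequence AGGTCA, the core site of nuclear receptors, was sought on both strands and occurred in 7 of 35 windows (20%), against 16.3% of 32851 windows of all genes. The 7 genes are Acacb, Acadm, Acadvl, Cd36, Cpt1a, Echs1 and Ucp3, of which Acacb and Echs1 fell in the clipped RV. AAGGTCA, which contains it, occurred in Acacb and Acadm, 5.71% of windows against 4.72%. TCAAGGTCA, the full estrogen-related receptor element and itself an extension of both, occurred in 0 of the 35 windows and in 0.423% of all. The windows of these genes had a median GC content of 59.6%, against 52.4% over all windows. A set of 4 is shown 5′ to 3′ on the gene's own strand, 250 bases up to the start: Esrra as the regulator that fell, Etfb as the gene that passed at all 3 times, Hadha because its start lies 273 bases from that of Hadhb on the other strand, and Acadm as an example with the core site, in capitals, in its reverse form 249 bases before the start.
Esrra, chr19:6921809-6922058, minus strand: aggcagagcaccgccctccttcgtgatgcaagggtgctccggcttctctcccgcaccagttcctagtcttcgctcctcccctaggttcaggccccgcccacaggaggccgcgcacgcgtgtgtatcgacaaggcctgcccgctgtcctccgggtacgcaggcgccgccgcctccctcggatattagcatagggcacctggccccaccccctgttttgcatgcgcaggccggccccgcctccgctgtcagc
Etfb, chr7:43443822-43444071, plus strand: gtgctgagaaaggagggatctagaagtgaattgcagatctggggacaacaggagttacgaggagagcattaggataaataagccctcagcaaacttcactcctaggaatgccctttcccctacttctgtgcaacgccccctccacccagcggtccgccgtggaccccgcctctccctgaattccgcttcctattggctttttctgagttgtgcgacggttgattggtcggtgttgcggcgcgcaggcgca
Hadha, chr5:30154981-30155230, minus strand: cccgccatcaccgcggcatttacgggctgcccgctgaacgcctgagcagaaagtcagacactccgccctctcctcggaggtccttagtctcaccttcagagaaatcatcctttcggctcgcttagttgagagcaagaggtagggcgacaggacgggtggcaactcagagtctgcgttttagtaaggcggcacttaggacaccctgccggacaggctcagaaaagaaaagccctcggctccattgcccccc
Acadm, chr3:153944644-153944893, minus strand: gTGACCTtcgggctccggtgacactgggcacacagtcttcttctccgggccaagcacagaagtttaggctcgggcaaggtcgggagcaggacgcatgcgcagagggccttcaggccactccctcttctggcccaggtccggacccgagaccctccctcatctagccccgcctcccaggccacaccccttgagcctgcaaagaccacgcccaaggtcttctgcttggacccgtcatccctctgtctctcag

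The Esrra and Etfb windows, whose genes passed, hold no AGGTCA. Acadm, whose window holds one, differed by -0.20 ± 0.09 and did not pass, while Acacb and Echs1, whose windows also hold it, passed. A match or its absence in these windows is a description of the letters and not of binding. Hadha and Hadhb, which start back to back, fell on either side of the threshold.

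Taken by time, 7 genes fell at 1 week, where 8.86% of all genes did. Mlycd, Acads, Acaa2, Ech1, Etfb, Pnpla2 and Esrra made up this set. At 3 weeks 2 genes fell, Etfb and Esrra, where 2.54% of all genes did, and at 6 weeks 5 fell, Mlycd, Acaa2, Ech1, Etfb and Acot1, where 3.73% did. No member rose at any of the 3 times, where 9.57%, 3.22% and 5.52% of all genes did. The median difference of the 34 genes was -0.31, -0.31 and -0.28 at 1, 3 and 6 weeks, against -0.05 over all genes each time. All clipped arrays of the time lay below both sham arrays for 22, 24 and 26 genes, against 36.7%, 35.7% and 35.8% of all genes. By sign alone 32, 33 and 31 genes lay below 0, against 57.1%, 58% and 58% of all genes. At 1 week 17 genes were lower at an unadjusted p of 0.05, against 21.2% of all genes. In all, 8 genes passed at 1 or more single times, 6 passed in the mean alone, and 20 passed nowhere. The shares of all genes for these combined counts were not computed, so the counts have no background beside them. All of these comparisons with sham RV use the same 2 sham RV arrays.

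The number of calls at a single time moved widely with single arrays, as did the number over all genes, whose ranges are given in the last section. At 1 week, 0 genes passed without PAC array 2 of that time or without either sham RV array, 23 passed without PAC array 1 of that time, and 4 passed without any 1 of the LV arrays. At 3 weeks, 0 passed without any 1 of the arrays of PAC at 3 weeks, sham RV, sham LV or TAC, and 13 passed without either PAC array of 1 week. At 6 weeks, 0 passed without PAC array 2 of that time or either sham RV array, 2 passed without PAC array 1 of that time, either sham LV array or either PAC array of 3 weeks, 3 without either TAC array, and 13 without either PAC array of 1 week.

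Between 1 and 6 weeks of clipping 0 of the 34 genes passed (limma), and 0 had an unadjusted p below 0.05, where 0.0602% of all genes fell and 0.0351% rose and 5.48% were lower at an unadjusted p of 0.05. Both arrays at 6 weeks lay below both at 1 week for 1 gene, against 17.2% of all genes, and 11 of the 34 differences were below 0, against 47.7%. The median difference between these times was 0.03. Acot1 had the largest difference, -0.45 (adjusted p = 0.70), and Ppargc1a the largest upward one, 0.33 (adjusted p = 0.63). Leaving out 1 array at a time turned the sign of the median, from -0.14 to 0.21, so these arrays give no direction over time.

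In the LV under TAC, 0 of the 34 genes passed (limma), and 0 had an unadjusted p below 0.05, where 0% of all genes passed in either direction and 2.93% were lower at an unadjusted p of 0.05. The median difference was -0.11, against -0.02 over all genes, and 30 of the 34 lay below 0, against 55.2% of all genes. For 19 genes both TAC arrays lay below both sham LV arrays, a pattern of 23.1% of all genes. Acot1 at -0.46 ± 0.29, Slc27a1 at -0.36 ± 0.19, Ucp3 at -0.32 ± 0.34 and Ppargc1a at -0.30 ± 0.19 had the largest differences. None passed (adjusted p = 0.98 for each).

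The difference between the ventricles was tested directly at 3 weeks, as the PAC change less the TAC change. By this test 0 of the 34 genes passed (limma), as did 0% of all genes, so a smaller change in the LV was not shown for any gene. At an unadjusted p of 0.05, 4 genes had a deeper change in the RV, where 6.03% of all genes were lower in this sense. Etfb gave -0.47 ± 0.17 (adjusted p = 0.37). Esrra gave -0.39 ± 0.14 (adjusted p = 0.38), Acads -0.39 ± 0.16 (adjusted p = 0.40) and Cpt2 -0.47 ± 0.21 (adjusted p = 0.41). The median over the 34 genes was -0.18, against -0.02 over all genes, and 25 lay below 0, against 53.1% of all genes.

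**Figure D3:**
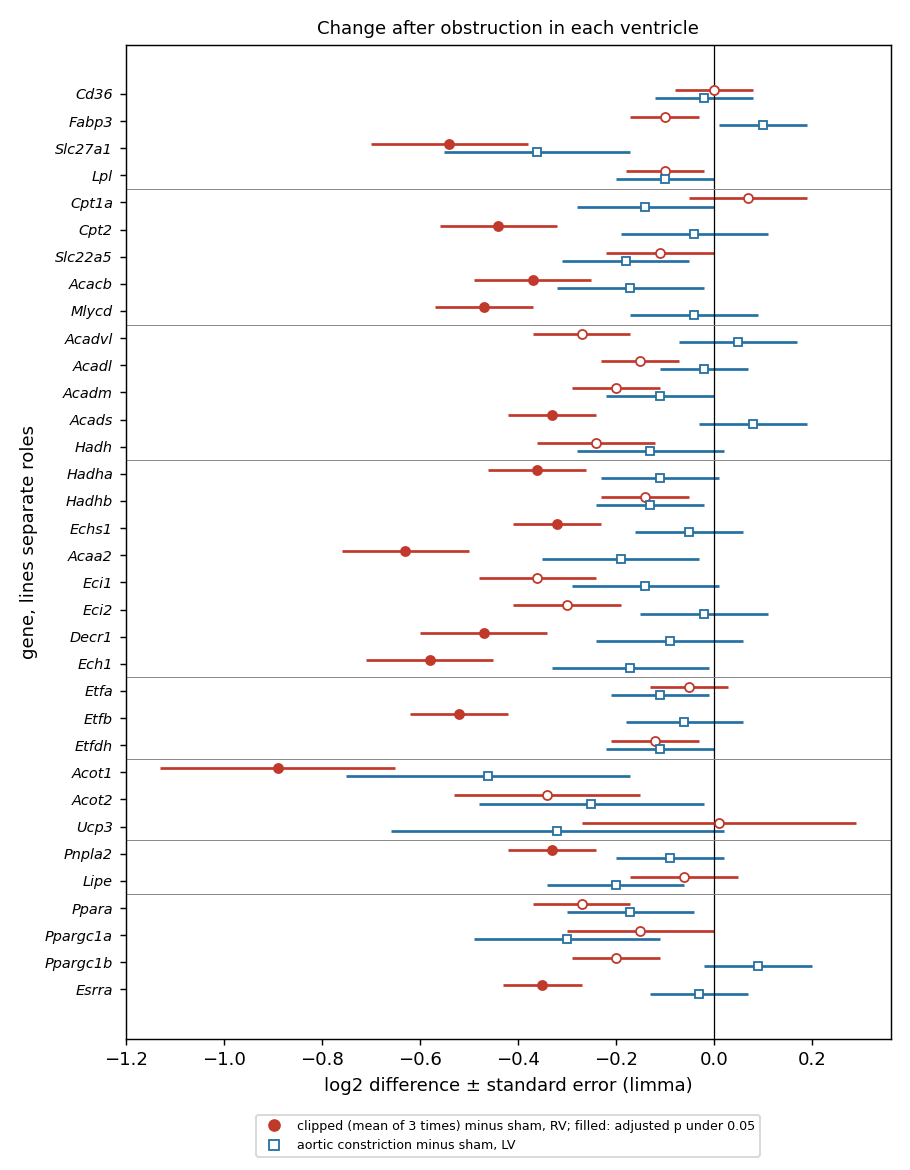
Log2 difference from sham, on the horizontal axis, of each of the 34 genes, with circles for the mean of the 3 PAC times in the RV (filled where adjusted p was 0.05 or less), squares for TAC in the LV, and bars for the standard error. The 14 filled circles lie between -0.89 and -0.32, while the squares of the same genes lie between -0.46 and 0.08 and none of them passed.

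The sham ventricles enter this comparison, so they were set against each other. Between sham RV and sham LV 0 of the 34 genes passed (limma), where 0.336% of all genes were lower and 0.0752% higher in the RV, and 3 (8.82%) had an unadjusted p below 0.05, against 20.7% of all genes. Those 3 were Etfb, Esrra and Etfa, and none of them passed. Etfb was 0.36 ± 0.12 higher in sham RV (adjusted p = 0.14) and Esrra 0.27 ± 0.10 higher (adjusted p = 0.18), while Etfa was lower, at -0.22 ± 0.10 (adjusted p = 0.24). Etfb and Esrra are also 2 of the 4 genes with a PAC change deeper than the TAC change at an unadjusted p below 0.05 (limma), where none passed. The same sham arrays enter both differences. With cyclic loess scaling the split of all genes between the shams moved from 67 lower and 15 higher in the RV to 54 and 28. Median differences were 0.08 for the 34 genes and 0.02 for all genes. By sign alone 13 of the 34 were below 0, against 45.3% of all genes, and both sham RV arrays lay above both sham LV arrays for 12, against 29.3%. Clipped RV arrays overlapped the sham LV arrays for both, at 8.29 to 8.59 for Esrra and 11.70 to 12.11 for Etfb.

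Markers of other cells moved with the same arrays. Over the 3 times 12.6% of all genes fell and 12.2% rose, the shares to set beside the marker counts. The summed fibroblast level was 13.93 and 13.86 in sham RV and between 14.23 and 15.00 on the clipped arrays, with 7 of 10 markers higher over the 3 times, among them Postn by 3.10 ± 0.42. Macrophage markers summed to 11.70 and 11.67 in sham RV and 11.78 to 12.81 in the clipped RV, with 3 of 10 higher in the mean of the 3 times. By time, 9 of the 10 were higher at 1 week, the time at which 7 fatty acid genes fell, and 0 at 3 weeks and 0 at 6 weeks. The medians were 0.75, 0.39 and 0.11. Of all genes 9.57%, 3.22% and 5.52% were higher at these times. Endothelial markers summed to 13.01 and 13.12 against 13.25 to 13.52, with 8 of 10 higher. The 6 atrial muscle genes, which include the load marker Nppa, summed to 11.46 and 10.99 in sham RV and 13.24 to 14.39 in the clipped RV, with 5 higher, and to 12.39 and 13.63 in sham LV. Skeletal muscle markers moved in the direction of the fatty acid genes, summing to 9.14 and 9.18 in sham RV and 8.80 to 8.96 on the clipped arrays, with 3 of 8 lower, among them Tnni2, which fell by 0.52 ± 0.09 (adjusted p = 0.0065). All 8 lay below 0 by sign, with a median of -0.26. Of the 3 lower, Myh4 read below the array's median of unlisted probe sets on all 12 arrays. Tnnt3 and Tnni2 read above it on all 12. Fat cell markers summed to between 9.29 and 9.67 over the 12 arrays, with 3 of 8 lower and 1 higher over the 3 PAC times. Among the 3 lower, Retn read below the median of unlisted probe sets on 10 arrays, and Plin1 and Cidec above it on all 12. PAC array 2 at 1 week, the array with the deepest values of the 34 genes, had the highest fibroblast, macrophage and atrial sums, 15.00, 12.81 and 14.39. The part of these cells in the lower levels was not tested. Heart muscle markers summed to between 17.27 and 17.36 on all 12 arrays, and of 16 markers 1 rose, Mybpc3, and 2 fell, Tnni3 by 0.30 ± 0.07 and Ryr2 by 0.24 ± 0.07, with a median difference of -0.02.

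Other genes of fatty acid handling moved in both directions. The list covers peroxisomal oxidation, lipid droplets, synthesis and further synthetases. Of 56 measured of 63 listed, 11 fell and 5 rose over the 3 times, where 12.6% of all genes fell and 12.2% rose. The median difference was -0.04, and 60.7% lay below 0 by sign, against 58.5% of all genes. Acaa1b, a peroxisomal thiolase, fell by 0.72 ± 0.14 (adjusted p = 0.0098), and Plin5, a lipid droplet protein of oxidative tissue, fell by 0.59 ± 0.15 (adjusted p = 0.021). G0s2, an inhibitor of the lipase encoded by Pnpla2, fell by 0.64 ± 0.09 at 6 weeks (adjusted p = 0.008). In the other direction Scd1, a fatty acid desaturase, rose by 0.82 ± 0.18 (adjusted p = 0.014), and Acsl5, an acyl-CoA synthetase, rose by 0.60 ± 0.11 (adjusted p = 0.0076).

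Of 54 measured respiratory chain genes, 14 fell and 0 rose over the 3 times, with a median of -0.16. The shares of all genes, for this list and the next, were 12.6% lower and 12.2% higher. Cox8b and Cox4i1, subunits of cytochrome c oxidase, fell by 0.44 ± 0.08 and 0.41 ± 0.08. Of 20 measured genes of glucose uptake and glycolysis, 4 rose and 1 fell, with a median of 0.11. Pfkp, the platelet form of phosphofructokinase, rose by 1.37 ± 0.19 (adjusted p = 0.0036), and Slc2a1, the glucose transporter GLUT1, rose by 0.59 ± 0.13 (adjusted p = 0.013). After TAC no gene of these 3 lists passed, where 0% of all genes did, and their medians were -0.02, -0.04 and -0.01.

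**Figure D4:**
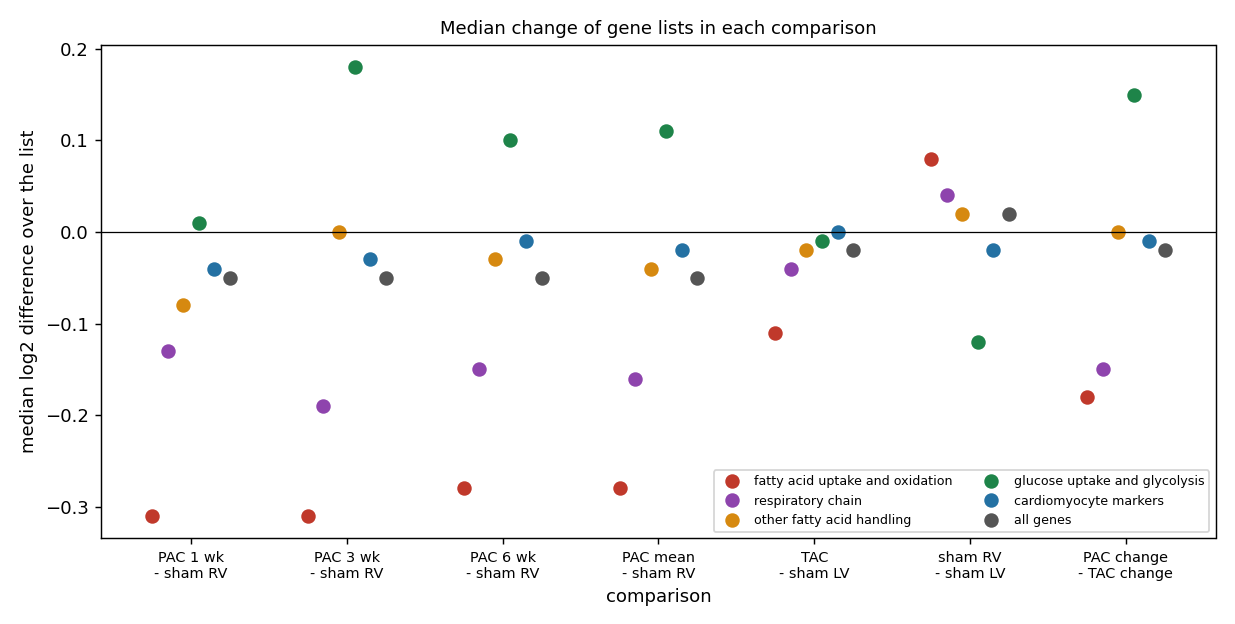
Median log2 difference of the 34 fatty acid genes, the 3 other metabolic lists, the heart muscle markers and all genes, on the vertical axis, by comparison. The fatty acid uptake and oxidation genes lie lowest in all 4 comparisons of PAC with sham RV, at -0.31, -0.31, -0.28 and -0.28, and at -0.11 for TAC.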

How the data were processed

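Heart tissue of 12 mouse samples was measured on Affymetrix whole-transcript arrays, 2 per group. The authors deposited log2 expression values, made with RMA in Affymetrix Power Tools per the submitters' processing notes. Software version, array library files and genome build: not given in the sources used here. RMA corrects background, equalises the arrays' distributions and summarises probes, which can shrink large differences. They span 1.71 to 14.78 (medians per array of 6.32 to 6.4) and were not rescaled.

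Of 35556 probe sets, 21789 carried a single gene in the platform annotation, 1621 several and 12146 were unlisted; only the first were used, as 19938 genes, of which 999 had several probe sets and were represented by the one with the highest mean. Some gene names (91) were not in the RefSeq table and were kept as given. All genes on all 12 arrays entered 1 linear model, with a mean for each group, in limma 3.58.1 under R 4.3.3 (6 residual and 4.6 prior degrees of freedom), and p-values were adjusted over all genes by Benjamini-Hochberg at a threshold of 0.05. Errors are standard errors, with a median of 0.112 between groups. The fit was run on simulated data with independent noise for each gene and array. Such data hold no shift shared by the genes of an array, so this run does not test the calls against one. Comparisons were PAC at each time and on average against sham RV, PAC at 6 weeks against 1 week, TAC against sham LV, sham RV against sham LV, and the PAC change less the TAC change at 3 weeks.

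The genes and lists were chosen with earlier results of these data known. All measured genes of the set could be named; those that passed are given by array, as is the largest difference in each role. Of the other lists, at most the 4 largest differences that passed could be named.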

Additional observations from a re-analysis of the deposited data

How the results depend on the processing

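The direction of the median difference of the 34 genes held under every alternative run for PAC and TAC against sham and for the PAC change less the TAC change, while the number of genes past the threshold did not. Fitting only the arrays compared left 0 of the 34 past the threshold at 1 week, against 7, and 6 in the mean of the 3 times, against 14. At 3 weeks, against 2, there were 6 without genes below the median level, 4 with a trended and robust prior, and 4 with only the arrays compared. At 6 weeks, against 5, cyclic loess scaling gave 10, as did testing the brighter genes alone (10). Leaving out 1 array at a time gave 0 to 23 genes at 1 week, 0 to 13 at 3 weeks, 0 to 13 at 6 weeks and 0 to 21 in the mean of the 3 times. It gave 0 to 0 in the other 4 comparisons.

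Of all genes, cyclic loess scaling left 2174 of 3675 at 1 week, 535 of 1148 at 3 weeks and 3045 of 4941 in the mean of the 3 times. Fitting only the arrays compared left 89 at 1 week, 1020 of 1844 at 6 weeks, 2914 in the mean, 1 of 19 between 6 weeks and 1 week, 6 of 82 between the shams, and 2 against 0 for the PAC change less the TAC change. Without genes below the median level there were 32 between 6 weeks and 1 week and 871 between the shams, and with a trended and robust prior 83 and 723. Leaving out 1 array at a time gave 227 to 4557 genes at 1 week, 3 to 2070 at 3 weeks, 3 to 2656 at 6 weeks, 296 to 6235 in the mean, 1 to 488 between 6 weeks and 1 week, 0 to 1 for TAC, 0 to 252 between the shams and 0 to 3 for the last comparison. The cause of these shifts was not tested; an array left out or a smaller fit also leaves fewer degrees of freedom.

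Numbers 1 and 2 in the labels are not said to pair samples. Of 15 pairs of groups 5 had deviations that correlated above 0.1, and the range was from -0.24 to 0.37. The highest were those between PAC times, at 0.370 for 1 and 6 weeks, 0.263 for 1 and 3 weeks and 0.261 for 3 and 6 weeks. With the label number as a replicate block, 4 of the 34 genes passed at 3 weeks, 8 at 6 weeks, 10 at 1 week and 18 in the mean. Of all genes, 11 passed between 6 weeks and 1 week with this block. The numbers over all genes for the other comparisons with this block are not given here. The counts of the 34 genes therefore cannot be set against them.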
